A study of Mus musculus with 48 samples.

Results

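The Ikaros family genes Ikzf1, Ikzf2, Ikzf3 and Ikzf4 were described through the regions of accessible chromatin (peaks) assigned to them in CD8 T cells recovered from mouse tumours. ATAC-seq, the assay used, cuts open DNA with the Tn5 transposase, so the reads in a peak measure accessibility and not the RNA or protein of the gene. Peaks overlapping the body of a protein-coding gene were given to that gene (among several, to the one with a boundary nearest the middle of the peak), and the others to the nearest gene body within 100 kb. By this rule 51 of 53868 peaks belonged to the 4 genes. Ikzf1 had 18 (15 in the gene body), Ikzf2 had 15 (6 in the body and 9 outside, up to 76740 bp away), Ikzf3 had 13 and Ikzf4 had 5, all in the body.

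The cells were splenic OT-1 CD8 T cells, whose receptor recognises an ovalbumin peptide. All of them carried CD45.1 and Cas9 and a lentiviral guide RNA with an ametrine reporter, also the controls, and were given to young or aged mice the day before B16-OVA melanoma cells. They were sorted from tumours on day 15 after inoculation, still by the reporter, into states gated on Slamf6 and Tim-3. The 48 libraries form 21 groups, 15 of 2 libraries and 6 of 3, each library a pool of 5000 to 50000 cells from several mice. The perturbations were the OTC control, Zfp219 (labelled Zfp219KO) and Dusp5 (labelled Dusp5KO). Tprog cells (Slamf6+ Tim-3-) are labelled progenitor exhausted, Ttran cells (Slamf6+ Tim-3+) transitory and effector-like, and Tterm cells (Slamf6- Tim-3+) terminally exhausted. Ttad cells (Slamf6- Tim-3-), labelled age-associated dysfunctional, were analysed here from aged hosts only. Age refers to the host, because the donor cells were transferred; the letters A and Y of the titles were read as aged and young.

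Ikaros (Ikzf1), Helios (Ikzf2), Aiolos (Ikzf3) and Eos (Ikzf4) are zinc-finger transcription factors of the lymphoid lineage. N-terminal fingers bind DNA, C-terminal fingers join the proteins into homodimers and heterodimers, and the dimers recruit chromatin complexes such as the nucleosome remodelling and deacetylase complex (NuRD). Ikaros is needed for lymphocyte development and restrains T cell activation genes, Aiolos is best known in B cells and effector T cells, and Helios and Eos are known from regulatory T cells, with Helios also found in activated and exhausted CD8 T cells. In human cells, Ikaros and Aiolos are among the proteins that lenalidomide and related drugs send to the cereblon ubiquitin ligase.

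Promoter sequence was at hand for Ikzf1, on the plus strand of chromosome 11 (RefSeq, GRCm38.p6, 250 bases before to 50 after each start). It is shown because the 2 starts lie in separate peaks, 3 and 4, whose values are given below. Capitals mark CG dinucleotides.
Ikzf1 promoter 1, chr11:11685675-11685974, inside peak 3: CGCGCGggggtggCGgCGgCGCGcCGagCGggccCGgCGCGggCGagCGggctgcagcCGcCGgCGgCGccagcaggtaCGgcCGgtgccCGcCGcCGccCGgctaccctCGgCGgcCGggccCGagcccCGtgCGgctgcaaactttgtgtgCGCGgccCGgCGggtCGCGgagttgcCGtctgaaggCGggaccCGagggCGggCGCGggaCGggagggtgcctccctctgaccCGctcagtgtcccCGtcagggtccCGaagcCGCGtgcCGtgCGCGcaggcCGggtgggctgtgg
Ikzf1 promoter 2, chr11:11689927-11690226, inside peak 4: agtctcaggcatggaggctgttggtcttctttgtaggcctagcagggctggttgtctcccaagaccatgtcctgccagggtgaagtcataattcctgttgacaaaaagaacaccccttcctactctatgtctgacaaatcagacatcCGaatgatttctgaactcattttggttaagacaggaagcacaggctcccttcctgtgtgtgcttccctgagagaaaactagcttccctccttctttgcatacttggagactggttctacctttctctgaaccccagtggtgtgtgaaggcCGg
Promoter 1 is rich in CG, with a GC content of 81.3% and 52 CG dinucleotides, a number reached by 0.575% of 32851 mouse promoters of the same length. Promoter 2 has a GC content of 49.0% and 2 CG, and 23.3% of promoters have as few, against a median of 7 CG and 52.7% GC. On either strand, neither window held TGGGAA (the Ikaros family core, in 25.6% of promoters), TGTGGT (Runx, 16.8%), CTTTGA (Tcf/Lef, 16%) or TGANTCA (AP-1, 7.81%). No match says only that these letters are absent from these windows.

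Reads in peaks were 5638413 to 29942755 per library, with 5638413 to 16159054 in aged and 6589023 to 29942755 in young hosts. Peaks of the CD8 T cell markers Cd3e, Cd3d, Cd8a, Cd8b1, Cd2 and Lck were present for 6 of 6 genes. No peak was assigned to Foxp3, Ms4a1, Cd79a, Csf1r, Lyz2, Adgre1, Tyr, Tyrp1 or Dct, markers of regulatory T, B, myeloid and melanoma cells. Other markers on the same lists had peaks, with median sums of 383 normalized reads at Pax5 (B cell), 597 at Cd68 and 493 at Spi1 (myeloid), and 547 at Pmel, 327 at Mitf, 193 at Sox10 and 166 at Mlana (melanoma), so accessibility here does not show whether such cells were present. Editing of the targeted genes is not seen in accessibility, so these libraries do not check the knockout labels: in Zfp219 libraries neither of the 2 peaks at Zfp219 was called, and at Dusp5 2 of 17 peaks were lower in aged hosts, and 1 was higher and 2 were lower in young hosts. The column names number the aged libraries from 1 to 24 and the young libraries from 1 to 24 again, so any difference in sequencing run between these series cannot be told apart from host age.

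Values below are normalized reads, that is, reads of the peak divided by the size factor of the library. A difference is on the log2(value + 1) scale with its standard error (SE), and a peak is called where limma's p, adjusted over all 53868 peaks by Benjamini-Hochberg, was under 0.05. Peaks are numbered along the chromosome within each gene (GRCm38 coordinates). Per kb of peak, the median library had 309 normalized reads at Ikzf4, 257 at Ikzf1, 240 at Ikzf3 and 176 at Ikzf2. The strongest peak of each gene was Ikzf1 peak 11 (chr11:11724658-11727050), Ikzf2 peak 5 (chr1:69543946-69544976), Ikzf3 peak 1 (chr11:98463552-98465277) and Ikzf4 peak 1 (chr10:128636500-128637780). Over the 21 group means, the range of a peak had a median of 1.12 on the log2 scale for the 51 members, against 1.32 for all peaks. The extremes were Ikzf1 peak 11, with a range of 0.39, and Ikzf3 peak 6, with a range of 4.61.

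**Figure D1:**
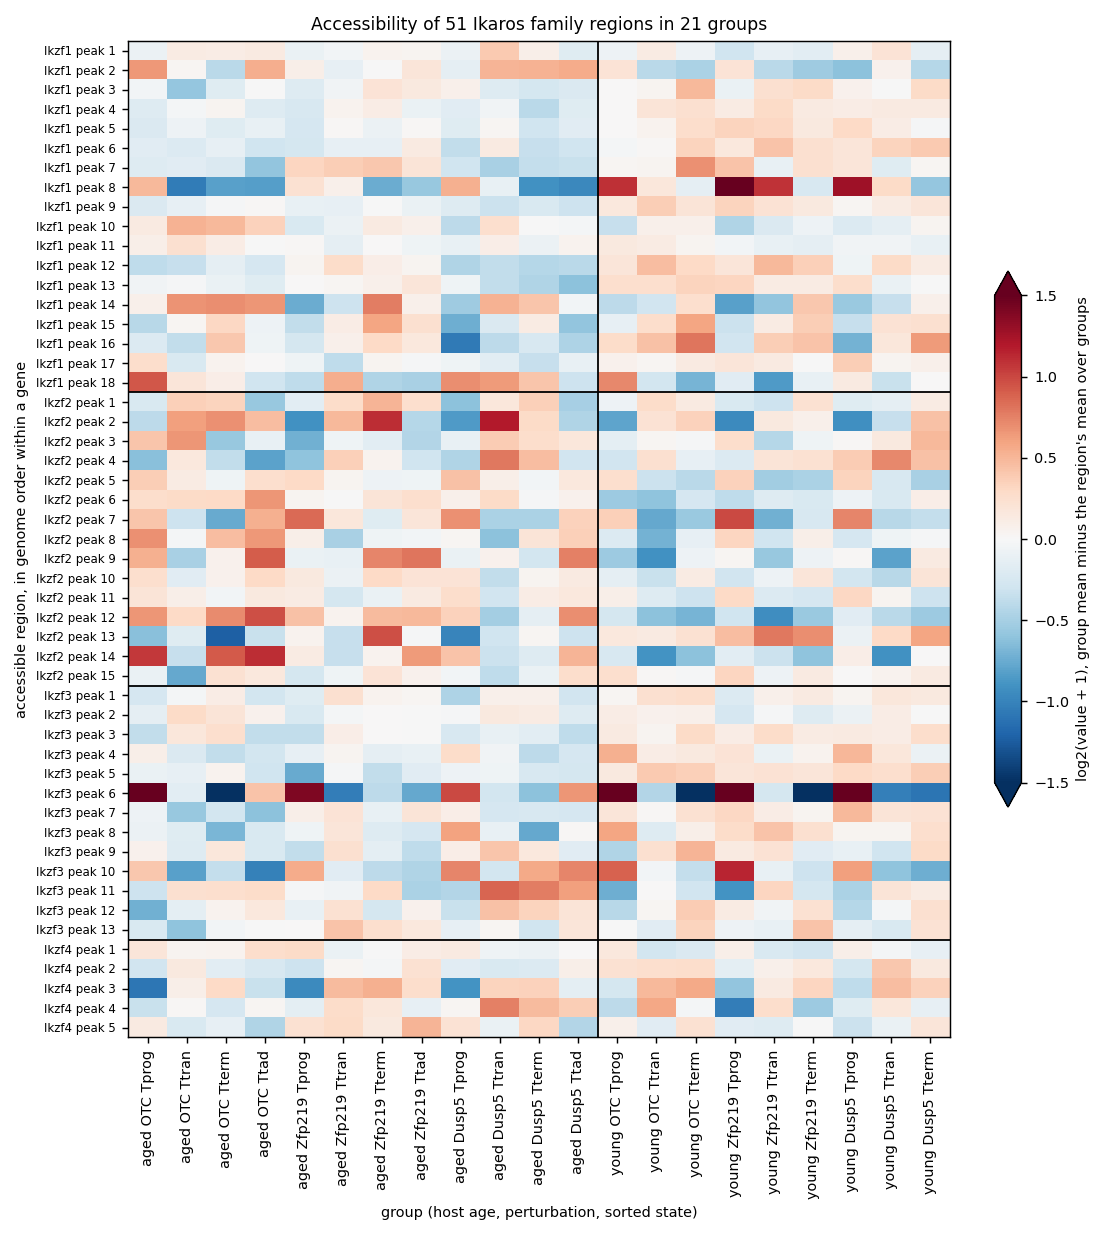
Accessibility of the 51 regions (rows, by gene in genome order) in the 21 groups (columns), as the log2 group mean minus the mean of the region over groups. Ikzf3 peak 6 stands out in the Tprog columns, and Ikzf2 peak 12 is higher in the aged than in the young columns of the same state for OTC and Zfp219.

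Between progenitor and terminal OTC cells, Helios peaks 5 and 7 and the weak Aiolos peak 6 were more open in Tprog at both host ages, and Ikaros peak 15 and Eos peak 3 were more open in Tterm. In such bulk samples, a larger share of cells with an open region and more opening per cell cannot be told apart. In aged OTC hosts 12 of 51 members were called, 5 higher and 7 lower in Tprog, which is 23.5% against 20.1% of all peaks (8.88% higher and 11.2% lower). In young OTC hosts 17 were called, 7 higher and 10 lower, which is 33.3% against 26.5% of all peaks (13.9% higher and 12.6% lower). By gene, the aged calls were 1 higher and 2 lower of 18 at Ikzf1, 2 higher of 15 at Ikzf2, 2 higher and 4 lower of 13 at Ikzf3 and 1 lower of 5 at Ikzf4. The young calls were 1 higher and 5 lower at Ikzf1, 3 and 1 at Ikzf2, 2 and 3 at Ikzf3, and 1 and 1 at Ikzf4. Each gene had a negative median difference in young hosts, from -0.17 at Ikzf1 to -0.09 at Ikzf2. The median difference of the members was -0.03 in aged hosts, against 0.01 over all peaks.

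Ikzf3 peak 6 (chr11:98487498-98488038), a weak region within the Aiolos gene, had the largest difference between Tprog and Tterm among the members. In aged OTC libraries it held 73.6 and 68.3 normalized reads in Tprog, 6.02 and 30.3 in Ttran, 6.54 and 1.83 in Tterm, and 15.1 and 29.6 in Ttad. In young OTC libraries it held 49.4 and 80.4 in Tprog, 16.3, 13.3 and 6.33 in Ttran, and 8.85, 0 and 3.94 in Tterm. Every Tprog library lay above every library of the other states at either age. The library at 0 allows up to 2.36 normalized reads (3 reads). Tprog exceeded Tterm by 3.96 (SE 0.73, adjusted p = 1.05e-05) in aged and by 4.13 (SE 0.66, adjusted p = 3.77e-07) in young hosts. With Zfp219 or Dusp5 the difference was positive as well, and over the 6 sets of age and perturbation it ran from 1.60 to 4.13 and was called in 4. The lowest value came from aged Dusp5, where the Tprog libraries held 19.1 and 52.5 and the Tterm libraries 6.76 and 14.

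Helios peaks 7 and 5 had smaller differences of the same sign. Ikzf2 peak 7 (chr1:69555519-69556193) held 114 and 167 normalized reads in aged OTC Tprog, 82.7 and 82.9 in Ttran, 44.7 and 82.5 in Tterm, and 146 and 154 in Ttad. In young OTC it held 156 and 113 in Tprog, 54.3, 68.8 and 58.1 in Ttran, and 72.7, 71.6 and 65.2 in Tterm. Tprog and Ttad libraries thus lay above all Ttran and Tterm libraries. Tprog exceeded Tterm by 1.17 (SE 0.27, adjusted p = 0.000406) in aged and 0.92 (SE 0.24, adjusted p = 0.0021) in young hosts. The aged call ended without replicate 1 of aged OTC Tterm (0.74, adjusted p = 0.116) and the young call without replicate 1 of young OTC Tprog (0.69, adjusted p = 0.111). Ikzf2 peak 5, the strongest Helios region, held 554 and 547 in aged OTC Tprog, 528 and 405 in Ttran, 416 and 398 in Tterm, and 529.9 and 484 in Ttad. In young hosts it held 534 and 484 in Tprog, 332, 346 and 339.9 in Ttran, and 338, 325 and 307 in Tterm. The difference between Tprog and Tterm was 0.44 (SE 0.13, adjusted p = 0.0124) and 0.66 (SE 0.12, adjusted p = 1.26e-05), with no overlap of the libraries.

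An Eos region, Ikzf4 peak 3, had the opposite sign. Ikzf4 peak 3 (chr10:128663272-128664474) held 180.0 and 163 normalized reads in aged OTC Tprog, 372 and 407 in Ttran, 437 and 459 in Tterm, and 236 and 352 in Ttad. In young OTC it held 336 and 276 in Tprog, 476, 499 and 564 in Ttran, and 544, 562 and 525 in Tterm. Tprog libraries were the lowest at each age, and Ttad libraries lay between Tprog and the others. Tprog was below Tterm with a difference of -1.38 (SE 0.14, adjusted p = 4.31e-13) in aged and -0.83 (SE 0.13, adjusted p = 2.62e-07) in young hosts. Ikzf4 peak 1, the strongest region of the same gene, went the other way: 749.6 and 814 in aged OTC Tprog against 713 and 718 in Tterm, and 774 and 767 in young Tprog against 605, 611 and 569.7 in Tterm. Only the young difference of peak 1 was called, at 0.37 (SE 0.09, adjusted p = 0.00115).

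Within Ikzf1, peaks 14, 15 and 16, toward the higher boundary of the gene, were called lower in Tprog in at least 5 of the 6 sets of age and perturbation. Peak 15 (chr11:11750204-11751849) held 213 and 185 normalized reads in aged OTC Tprog, 272 and 268 in Ttran, 320.3 and 339 in Tterm, and 258 and 243 in Ttad. In young OTC it held 216 and 271 in Tprog, 295, 316 and 349 in Ttran, and 365, 436 and 406 in Tterm. The order Tprog, Ttran, Tterm held at both ages with no overlap of the libraries. The difference of Tprog from Tterm was -0.73 in both, with SE 0.16 and adjusted p = 0.000344 in aged and SE 0.15 and adjusted p = 6.98e-05 in young hosts. Peak 16 (chr11:11762755-11763787) was called lower in 5 of 6 sets, with differences of -1.35 to -0.52, and peak 14 (chr11:11748854-11749443) also in 5 of 6, with -1.52 to -0.61. Over the 21 group means, peaks 15 and 16 had a Pearson r of 0.85, peaks 14 and 15 of 0.48 and peaks 14 and 16 of 0.25. The median over all 153 pairs of Ikzf1 peaks was 0.17. Each r is a description of regions that share every library.

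**Figure D2:**
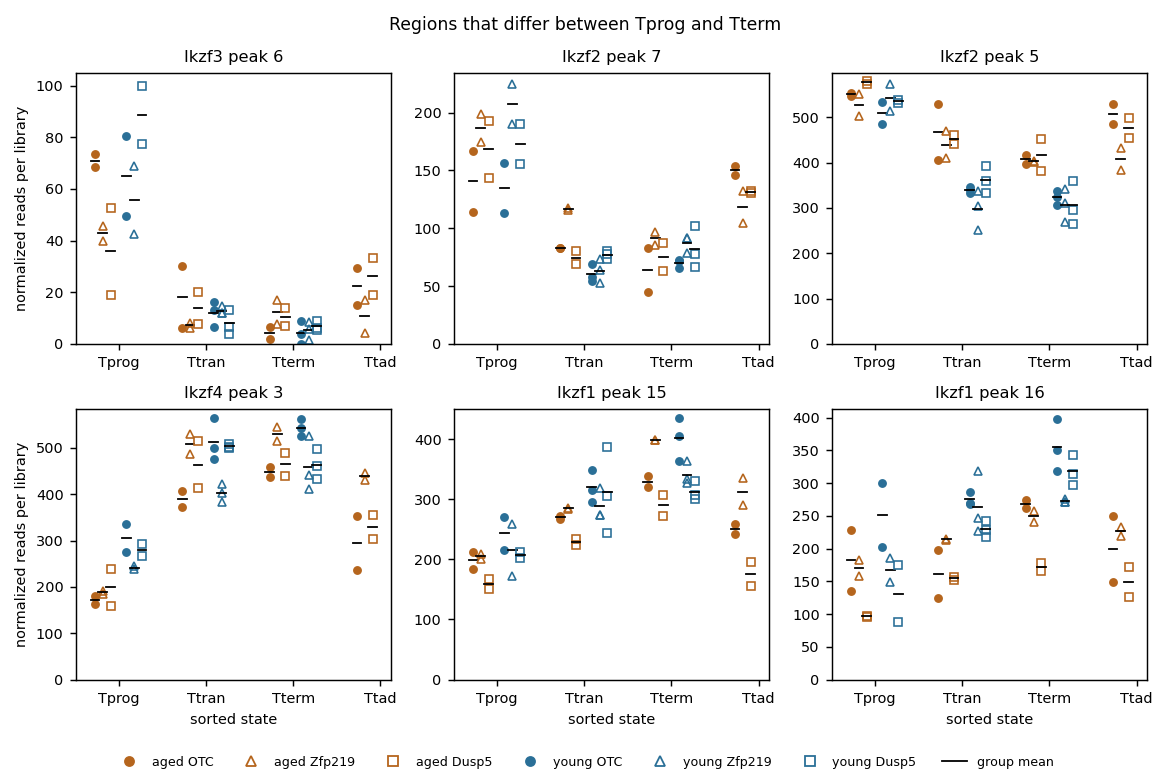
Normalized reads (vertical axis) of 6 regions by sorted state (horizontal axis), with each library as a marker and each group mean as a bar. Ikzf3 peak 6 and the Ikzf2 peaks are high in Tprog, whereas Ikzf4 peak 3 and the Ikzf1 peaks are lower there than in Tterm.

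The 6 sets of age and perturbation are separate libraries. Of the 51 members, 4 were called between Tprog and Tterm in all 6 sets in the same direction, which is also true of 6.3% of all peaks. They are Ikzf2 peak 5 (0.38 to 0.83), Ikzf2 peak 7 (0.92 to 1.24), Ikzf1 peak 15 (-0.96 to -0.59) and Ikzf4 peak 3 (-1.49 to -0.73). With these 4 included, 10 members were called in at least 4 sets (15.9% of all peaks), 23 in 1 to 3 and 18 in 0 (45.4% of all peaks). Ikzf1 peak 3, which holds promoter 1, was the member called in both directions: higher in Tprog in 1 set (aged Dusp5) and lower in 3. Its neighbour peak 4 held 503 and 495 normalized reads in young OTC Tprog and 545, 620.4 and 587 in Tterm.

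Calls of other named members in OTC cells ended when single libraries were left out. In aged hosts Ikzf1 peak 2 (chr11:11667709-11669200, outside the gene) was higher in Tprog by 1.05 (SE 0.35, adjusted p = 0.0228), with 90.6 and 89.6 against 47.9 and 38.5. Its call ended without either Tprog library or replicate 2 of Tterm, at adjusted p of 0.0961 to 0.17. Ikzf3 peak 12 had a difference of -0.78 in aged hosts (SE 0.28, adjusted p = 0.0378), and lost its call without replicate 1 of Tprog or either Tterm library. In young hosts Ikzf1 peak 18 (1.42, SE 0.55, adjusted p = 0.046) and Ikzf2 peak 2 (-1.14, SE 0.45, adjusted p = 0.0487) lost their calls in 5 and in 3 of 5 omissions. Ikzf3 peak 9, at -0.97 (SE 0.27, adjusted p = 0.0031), lost it without replicate 1 of Tprog (adjusted p = 0.0816). The number of members called in aged hosts was 7 without replicate 1 and 6 without replicate 2 of Tterm, and in young hosts 11 without replicate 1 or replicate 2 of Tprog.

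Genes listed as markers of other cells had different sums in the same states. Sums of the CD8 T cell markers varied too, from 15002 to 19568 over all libraries. Summed normalized reads of the NK cell markers with peaks (3 of 3 genes) were 3498 in aged OTC Tprog and 2733 in Tterm. By gene, the median sum over all libraries was 2478 at Klrb1c and 627 at Klra8, but 10.1 at Ncr1. The regulatory or CD4 markers (2 of 3 genes, Cd4 and Zbtb7b) had sums of 1248 in aged OTC Tprog and 1720 in Tterm. Over all libraries, Zbtb7b had a median sum of 1088 and Cd4 of 386. Pax5, the B cell marker with peaks (1 of 4 genes), had 518 in aged OTC Tprog and 311 in Tterm. The range over all libraries was 2503 to 3997 for NK, 1027 to 1760 for CD4, 279.9 to 672 for B, 829 to 1317 for myeloid (2 of 5 genes) and 913 to 1633 for melanoma markers (4 of 7 genes). Their part in the state differences was not tested.

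Ttran and Tterm cells differed at few Ikaros family regions, and at a small share of all peaks as well. In aged OTC hosts 2 of 51 members were called (3.92% against 3.22% of all peaks). They were Ikzf1 peak 16 at -0.77 (SE 0.21, adjusted p = 0.0234) and Ikzf2 peak 15 (chr1:69752569-69753455) at -1.0 (SE 0.20, adjusted p = 0.000583), both lower in Ttran. Peak 15 held 108 and 148 normalized reads in Ttran, 278 and 233 in Tterm, and 202 and 203 in Tprog, with no overlap. The call of Ikzf1 peak 16 ended without any of 3 libraries, at adjusted p up to 0.413, and that of Ikzf2 peak 15 without replicate 1 of Tterm (adjusted p = 0.0508) or replicate 1 of Ttran (adjusted p = 0.055). No member was left without replicate 1 of Tterm, and 1 without each of the others. In young OTC hosts 3 members were called (5.88% against 8.38% of all peaks). Ikzf1 peak 3 was lower in Ttran by -0.45 (SE 0.11, adjusted p = 0.00193), with 387, 448 and 432 against 539, 619 and 571. Ikzf2 peak 10 (chr1:69686345-69688302), which spans the higher boundary of the Helios gene, differed by -0.46 (SE 0.11, adjusted p = 0.00349), with 321, 325 and 323 against 461, 408 and 463. Ikzf3 peak 6 passed narrowly, at 1.74 (SE 0.59, adjusted p = 0.0497), and failed in 6 alternative analyses and 4 omissions of a library.

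Ttran differed from Tprog at more members, 15 of 51 in aged OTC hosts (29.4% against 17% of all peaks) and 9 in young OTC hosts (17.6% against 16.9%). Ikzf4 peak 3 was higher in Ttran by 1.18 (SE 0.14, adjusted p = 3.33e-10) in aged and 0.75 (SE 0.13, adjusted p = 6.84e-06) in young hosts. Ikzf3 peak 6 was lower at both ages, at -2.28 (SE 0.73, adjusted p = 0.0187) and -2.39 (SE 0.66, adjusted p = 0.0055). These 2 regions and Ikzf2 peaks 4 and 7 and Ikzf1 peak 10 were called at both ages. The sign was the same each time, with Ikzf2 peak 4 and Ikzf1 peak 10 higher and Ikzf2 peak 7 lower in Ttran.

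In Ttad cells of aged OTC hosts, Helios peak 7 was within the range of the Tprog libraries, and Aiolos peak 6 and Eos peak 3 lay between Tprog and Tterm. Against Tterm, 5 members were called (9.8% against 7.28% of all peaks). Ikzf2 peak 7 was higher in Ttad by 1.29 (SE 0.27, adjusted p = 0.000417) and Ikzf3 peak 6 by 2.26 (SE 0.73, adjusted p = 0.0377). Ikzf4 peak 3 was lower, at -0.63 (SE 0.14, adjusted p = 0.00167), as were Ikzf3 peak 3 (-0.61, SE 0.15, adjusted p = 0.00376) and Ikzf3 peak 1 (-0.39, SE 0.10, adjusted p = 0.00601). Peak 3 of Ikzf3 held 246 and 259.9 normalized reads in Ttad, 384 and 391 in Tterm, and 256 and 248 in Tprog. The count was 3 without replicate 1 of Ttad or replicate 1 of Tterm. Single omissions ended the calls of Ikzf2 peak 7 (without Tterm replicate 1, adjusted p = 0.125), Ikzf4 peak 3 (without Ttad replicate 1, adjusted p = 0.289), Ikzf3 peak 3 (without Ttad replicate 1, adjusted p = 0.0554) and Ikzf3 peak 6 (without either Ttad library or Tterm replicate 2, adjusted p = 0.0617 to 0.392).

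Against Tprog, 3 members were called in Ttad (5.88% against 6.55% of all peaks). Ikzf4 peak 3 was higher by 0.75 (SE 0.14, adjusted p = 0.000185), a call that ended without replicate 2 of Ttad (adjusted p = 0.1). Ikzf3 peak 12 was higher by 0.88 (SE 0.28, adjusted p = 0.0401), a call that ended in 3 alternative analyses and without Tprog replicate 1 (adjusted p = 0.427), Ttad replicate 1 (adjusted p = 0.275) or Ttad replicate 2 (adjusted p = 0.0633). Ikzf3 peak 10 was lower, at -1.42 (SE 0.45, adjusted p = 0.0386). The libraries of peak 10 were 10.1 and 45.6 in Ttad against 70.2 and 50.6 in Tprog, so the Ttad pair was wide, and without its replicate 1 the difference was -0.38 (adjusted p = 0.813). The count of 3 dropped to 1 without replicate 1 of Tprog or replicate 1 of Ttad. None of the 15 Helios peaks was called between Ttad and Tprog by limma, and 0 had an unadjusted p under 0.05. Against Ttran, 11 members were called (21.6% against 7.74% of all peaks), and 7 of them were Helios regions, 6 higher and 1 lower in Ttad (3.02% and 4.72% of all peaks). The higher ones were peaks 7, 9, 10, 12, 14 and 15, with peak 14 at 1.45 (SE 0.42, adjusted p = 0.02), and the lower one was peak 4 at -0.95 (SE 0.20, adjusted p = 0.000607). In the separate Zfp219 libraries 0 of 51 members were called between Ttad and Ttran by limma (10 at an unadjusted p under 0.05, 0.802% of all peaks called), so 0 of 15 at Ikzf2. In Dusp5 libraries 10 were called (4.59% of all peaks), with Ikzf2 at 4 higher and 2 lower. Neither other tools nor omissions of a library were run for Ttad against Ttran. Over the 3 perturbations, OTC included, Ikzf2 peak 7 exceeded Tterm in Ttad by 0.37 to 1.29 and was called in 2. The same difference at Ikzf3 peak 6 ran from -0.37 to 2.26, was positive in 2 and was called in 1, OTC.

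With host age in OTC cells, most called Ikaros regions were lower and most called Helios regions higher in aged hosts. Over the mean of Tprog, Ttran and Tterm in OTC cells, 28 of 51 members were called (54.9% against 36.5% of all peaks), 10 higher and 18 lower in aged hosts (17.3% and 19.1% of all peaks). At Ikzf1, 2 peaks were higher and 9 lower with a median difference of -0.27 over its 18 peaks, and at Ikzf2, 6 were higher and 2 lower with a median of 0.22 over 15. At Ikzf3, 1 was higher and 5 lower, and at Ikzf4, 1 higher and 2 lower, with medians of -0.26 and -0.24. The median over all peaks was 0.0023.

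Ikzf2 peak 12 (chr1:69692041-69692743), 4690 bp beyond the higher boundary of the Helios gene, had the most significant age difference. It held 431 and 339.8 normalized reads in aged OTC Tprog, 326 and 269 in Ttran, 403 and 389 in Tterm, and 461 and 484 in Ttad. In young OTC it held 196 and 208 in Tprog, 142, 152 and 183 in Ttran, and 144, 159 and 145 in Tterm. Each aged library lay above each young one. The mean difference was 1.08 (SE 0.09, adjusted p = 3.08e-17), with 0.92 in Tprog, 0.91 in Ttran and 1.41 in Tterm. Farther out, Ikzf2 peak 14 (chr1:69751274-69752165, 63923 bp beyond that boundary) held 109 and 97.6 in aged Tprog, 31.6 and 46.2 in Ttran, and 78.4 and 111 in Tterm. In young hosts it held 39.4 and 42.8 in Tprog, 22.1, 28.9 and 26.4 in Ttran, and 22.8, 44.8 and 30.4 in Tterm. Aged libraries were higher within every state, by 1.13 on average (SE 0.23, adjusted p = 3.45e-05).

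Ikzf2 peak 13 (chr1:69703480-69704085), which lies between these regions, went the other way, at -0.85 (SE 0.25, adjusted p = 0.00382). It held 18.1 and 17.7 in aged OTC Tprog, 22.6 and 27.1 in Ttran, and 13.1 and 10.1 in Tterm, against 27.9 and 35.9, then 23.4, 41.4 and 30.6, then 29.1, 38.5 and 33.2 in young hosts. The ages overlapped in Ttran and not in Tprog or Tterm. The remaining Helios regions that were higher in aged hosts were peak 5 (0.30), peak 6 (0.75), peak 8 (0.72) and peak 9 (0.55), and peak 15 was lower (-0.30).

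At Ikzf1, peak 12 (chr11:11736550-11737466) held 198 and 181 normalized reads in aged OTC Tprog, 202 and 187 in Ttran, and 183 and 276 in Tterm. In young OTC it held 290.1 and 271 in Tprog, 321, 376 and 334 in Ttran, and 317, 319 and 279 in Tterm. Aged libraries were lower within every state, with a mean difference of -0.61 (SE 0.09, adjusted p = 6.88e-08). Peak 9 (chr11:11715603-11716911), named here after its values were seen, held 317 to 404 over the 6 aged and 405 to 527 over the 8 young OTC libraries, a difference of -0.36 (SE 0.07, adjusted p = 2.78e-05). Both promoters were lower in aged hosts, peak 3 by -0.44 (SE 0.07, adjusted p = 1.46e-07) and peak 4 by -0.21 (SE 0.06, adjusted p = 0.0061). Peak 14 was higher, at 0.62 (SE 0.14, adjusted p = 0.000133), with 130.2 and 116 against 99.6 and 77.9 in Tprog, 176 and 196 against 78.6, 98.5 and 112 in Ttran, and 199 and 179 against 139.7, 134 and 143 in Tterm. So the regions of the gene did not move as a unit, and peak 10 was also higher, at 0.45 (SE 0.07, adjusted p = 2.77e-07). The weak peak 8 (chr11:11710037-11710466) had a difference of -0.84 (SE 0.31, adjusted p = 0.0241). One of its Ttran libraries, aged OTC replicate 2, stood at 3.19 beside 33.1, and without it the difference was -0.33 (adjusted p = 0.421). The call also ended without aged OTC Tprog replicate 2, aged OTC Tterm replicate 2, young OTC Tprog replicate 1 or young OTC Ttran replicate 1 (adjusted p = 0.0543 to 0.107), with edgeR (adjusted p = 0.0566) and with a replicate block (adjusted p = 0.0637).

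At Ikzf3, peak 5 (chr11:98479599-98481783) held 379 to 487 normalized reads over the 6 aged and 449.9 to 636 over the 8 young OTC libraries, which overlapped, a difference of -0.35 (SE 0.07, adjusted p = 5.04e-05). Peak 7 (chr11:98492704-98494595) had the largest Aiolos fall, at -0.45 (SE 0.10, adjusted p = 0.000174), with 129 to 193 in aged and 195 to 273 in young libraries. Peak 11 rose by 0.40 (SE 0.12, adjusted p = 0.0065), a call lost without replicate 1 of aged Ttran (0.32, adjusted p = 0.0505). At Ikzf4, peak 3 was lower in aged hosts by -0.50 (SE 0.08, adjusted p = 1.36e-07), with values given above, and peak 1 was higher by 0.20 (SE 0.06, adjusted p = 0.00227).

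**Figure D3:**
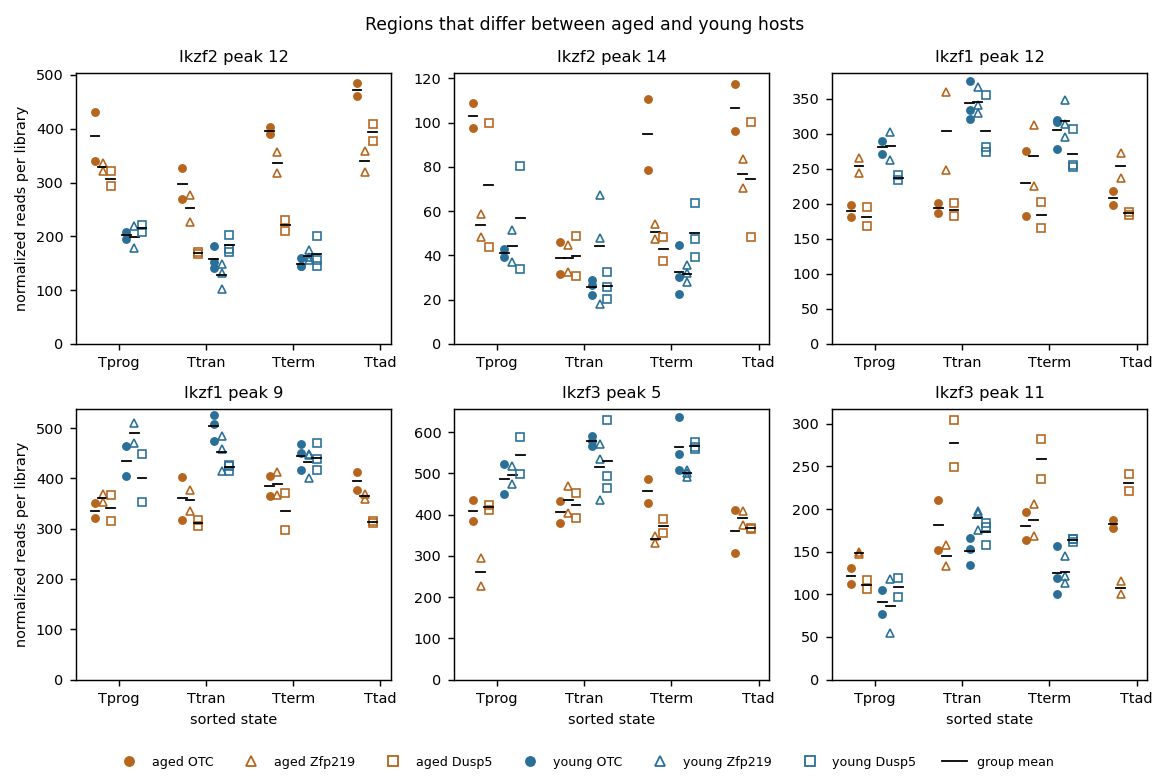
Normalized reads (vertical axis) of 6 regions in aged and young hosts for each perturbation and state (horizontal axis), with each library as a marker and group means as bars. Ikzf2 peak 12 is higher in aged OTC and Zfp219 hosts in every state, and Ikzf1 peaks 9 and 12 are lower in aged OTC hosts.

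The same age comparison in the separate Zfp219 libraries gave 14 of 51 called members (27.5% against 30.3% of all peaks). In Dusp5 libraries 23 were called (45.1% against 31.8%). With Zfp219 the calls were 1 higher and 6 lower at Ikzf1, 2 higher at Ikzf2, 1 and 2 at Ikzf3, and 2 higher at Ikzf4. With Dusp5 they were 2 and 10 at Ikzf1, 2 and 1 at Ikzf2, 1 and 5 at Ikzf3, and 2 lower at Ikzf4. The median difference was 0.20 and 0.02 at Ikzf4, and 0.27 and 0.04 at Ikzf2. Ikzf2 peak 12 was higher by 0.92 (SE 0.09, adjusted p = 2.14e-13) with Zfp219 and by 0.27 (SE 0.09, adjusted p = 0.0192) with Dusp5. Over the 9 tests within a single state it was called higher in 7 and positive in 8, and 2.39% of all peaks were called in at least 7 in the same direction. Ikzf2 peak 5 was called higher in 5 tests, Ikzf1 peak 9 lower in 6 and Ikzf1 peak 12 lower in 5, and 6.89% of all peaks reached 5. Ikzf3 peak 5 was called lower in 4 and had a negative difference in all 9, from -0.94 to -0.23.

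Perturbation of Zfp219, a zinc-finger protein gene, was set against OTC as the mean over states. In aged hosts 18 of 51 members were called (35.3% against 25.8% of all peaks), 10 higher and 8 lower (12.1% and 13.7% of all peaks). In young hosts 5 were called (9.8% against 7.07%), all lower (5.15% of all peaks were lower and 1.92% higher). At Ikzf1 in aged hosts, peak 10 was lower by -0.40 (SE 0.07, adjusted p = 1.12e-06), peak 14 by -0.58 (SE 0.13, adjusted p = 0.000199) and the strongest region, peak 11, by -0.15 (SE 0.04, adjusted p = 0.00198). Peak 12 was higher by 0.39 (SE 0.09, adjusted p = 0.000186), peak 3 by 0.23 and peak 7 (chr11:11703471-11704371) by 0.62 (SE 0.20, adjusted p = 0.0171). Peak 12 held 266 and 244 normalized reads in aged Zfp219 Tprog, 359 and 249 in Ttran, 312 and 226 in Tterm, and 237 and 272 in Ttad, against 181 to 276 over the 8 aged OTC libraries. The libraries overlapped in Tterm and were separate in the other states. This comparison and the age comparison share the aged OTC libraries. The call of peak 7 ended without aged OTC Tprog replicate 2 (adjusted p = 0.0631), Ttad replicate 2 (0.0676) or Ttran replicate 1 (0.0668).

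At the other genes in aged hosts, Ikzf3 peak 7 was higher with Zfp219 by 0.48 (SE 0.09, adjusted p = 2.83e-05). Its values were 243 and 189.8 against 191 and 193 in Tprog, 245 and 221 against 129 and 143 in Ttran, 165 and 213 against 172 and 161 in Tterm, and 224 and 237 against 107 and 161 in Ttad. The gap was thus in Ttran and Ttad, and the libraries overlapped in Tprog and Tterm. Ikzf4 peak 3 was higher by 0.34 (SE 0.07, adjusted p = 0.000134), with 192 and 184 in Tprog, 488 and 530.2 in Ttran, 545 and 514 in Tterm and 429.8 and 447 in Ttad, each above its OTC group. Ikzf2 peak 8 (chr1:69637770-69638756) was lower by -0.57 (SE 0.15, adjusted p = 0.00192) and peak 13 higher by 0.76 (SE 0.23, adjusted p = 0.00804). Peak 13 gave the largest difference in a single state, 2.2 (SE 0.46, adjusted p = 0.00091) in aged Tterm, with 51.7 and 61.1 against 13.1 and 10.1. Ikzf3 peak 5 was lower by -0.21 (SE 0.07, adjusted p = 0.0128), a call lost without aged OTC Ttad replicate 1, Zfp219 Tprog replicate 2 or Zfp219 Ttran replicate 1 (adjusted p = 0.0862, 0.078 and 0.0502). Ikzf4 peak 5 was higher by 0.46 (SE 0.18, adjusted p = 0.0492) and lost its call in 12 of 16 omissions.

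In young hosts the Zfp219 calls were Ikzf1 peak 11 (-0.21, adjusted p = 0.000188), Ikzf1 peak 16 (-0.34, adjusted p = 0.0375), Ikzf3 peak 1 (-0.17, adjusted p = 0.0208), Ikzf3 peak 2 (-0.24, adjusted p = 0.000504) and Ikzf4 peak 3 (-0.31, adjusted p = 0.0028). Ikzf4 peak 3 held 246 and 238 in young Zfp219 Tprog, 421, 403 and 383 in Ttran and 411, 441 and 525 in Tterm. The Tprog and Ttran libraries lay below OTC, and the highest Tterm library met the lowest OTC library at 525. Ikzf3 peak 2 (chr11:98469698-98471089) held 611 and 519 in Tprog, 680.3, 659 and 649.6 in Ttran, and 569.5, 583 and 612 in Tterm. Its Tprog and Tterm libraries were below OTC, and its Ttran libraries overlapped with OTC. The call of Ikzf1 peak 16 ended in 11 of 16 omissions, and without young OTC Tprog replicate 2 the count of calls was 3.

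Dusp5 encodes a nuclear phosphatase that acts on ERK. Against OTC, 12 members were called in aged hosts (23.5% against 12.2% of all peaks), 4 higher and 8 lower (4.35% and 7.87% of all peaks). In young hosts 4 were called (7.84% against 3.82%), 1 higher and 3 lower (1.8% and 2.02% of all peaks). All 6 Ikzf1 calls in aged and all 3 in young hosts were lower. Peak 10 differed by -0.41 (SE 0.07, adjusted p = 1.73e-06), peak 16 by -0.48 (SE 0.11, adjusted p = 0.000668), peak 14 by -0.44, peak 15 by -0.32, peak 13 by -0.29 and peak 11 by -0.12 in aged hosts. Peak 16 held 97.5 and 95.4 normalized reads in aged Dusp5 Tprog, 152 and 156 in Ttran, 179 and 165 in Tterm, and 126 and 172 in Ttad. Only its Tprog and Tterm libraries lay wholly below OTC. In young hosts peak 16 differed by -0.47 (SE 0.11, adjusted p = 0.00371). That call ended without young Dusp5 Tprog replicate 2 (adjusted p = 0.13), a library at 87.8 beside 175, or young OTC Tprog replicate 2 (adjusted p = 0.0657), and without the former library the count of calls was 2.

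Helios regions moved both ways with Dusp5. Ikzf2 peak 4 (chr1:69498414-69499676), 31531 bp from the lower boundary of the gene, was higher at both ages, by 0.54 (SE 0.10, adjusted p = 3.45e-05) and 0.57 (SE 0.10, adjusted p = 6.24e-05). In aged hosts it held 139 and 119.9 with Dusp5 against 102 and 129.5 with OTC in Tprog, 343 and 274 against 197 and 198 in Ttran, 211 and 284 against 151 and 125 in Tterm, and 139 and 152 against 85.5 and 121 in Ttad. In young hosts it held 227 and 237 against 129 and 163 in Tprog, 335, 311 and 242 against 192, 184 and 259 in Ttran, and 244, 229.8 and 246 against 150.4, 172 and 166 in Tterm. The libraries overlapped in aged Tprog and young Ttran and were separate in the other 5 pairs of groups. Ikzf2 peak 12 was lower in aged hosts, at -0.56 (SE 0.09, adjusted p = 8.48e-07), with 293 and 322 in Tprog, 167 and 171 in Ttran, 210.5 and 231 in Tterm, and 409 and 378 in Ttad. Every state lay below its OTC libraries. The aged OTC libraries of Tprog, Ttran and Tterm are also part of the age comparison. Ikzf3 peak 10 was higher by 0.88 (SE 0.22, adjusted p = 0.00357), with 73.3 and 76.9 in aged Dusp5 Ttad, and lost its call without aged OTC Ttad replicate 1 (0.62, adjusted p = 0.055). Ikzf3 peak 11 was higher by 0.34 and Ikzf4 peak 4 by 0.54 (adjusted p = 0.0298), the latter losing its call in 7 of 16 omissions.

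Within single states, 26 of 714 tests of members were called over both perturbations, a share close to the 3.5% of all tests. Zfp219 gave 17 of 357, a little below the 5.1% of its tests over all peaks. Dusp5 gave 9 of 357, a little above its 1.9%. Both perturbations were compared with the same OTC libraries, so neither set of values is independent of the other.

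**Figure D4:**
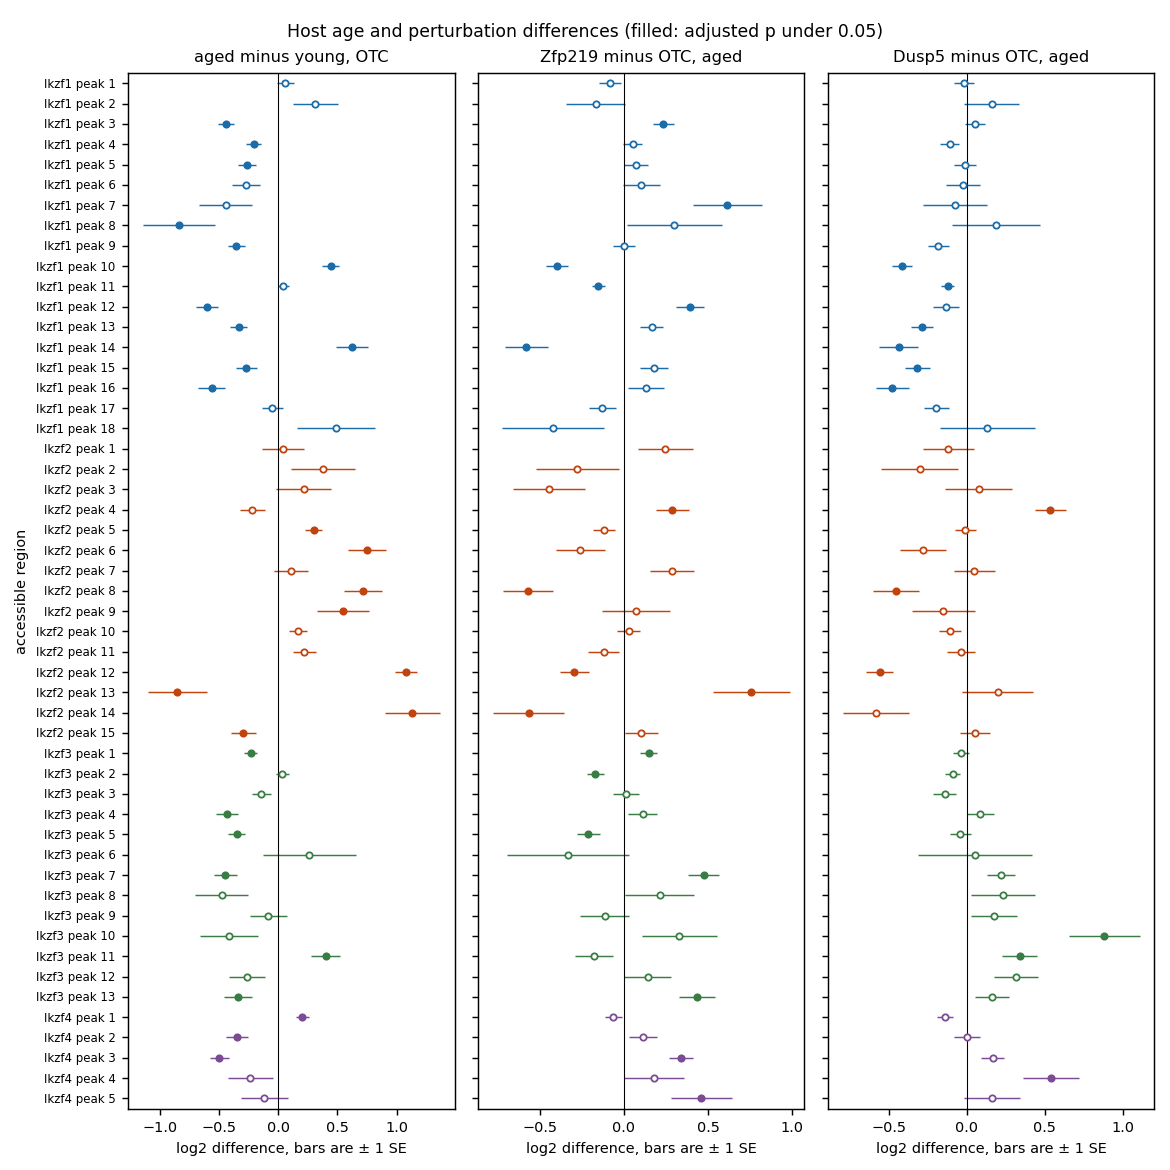
Log2 differences (horizontal axis, with bars of 1 SE) of the 51 regions (vertical axis) for aged against young OTC, Zfp219 against OTC in aged hosts and Dusp5 against OTC in aged hosts, with filled markers for adjusted p under 0.05. Ikzf2 peak 12 lies at 1.08, -0.29 and -0.56, and Ikzf1 peak 12 at -0.61 and 0.39 in the age and Zfp219 panels. Aged OTC libraries are added in the age panel and subtracted in the other panels. The panels are therefore not independent, and opposite signs between them were not tested.

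The perturbation effects in aged and in young hosts were also compared with each other, over the 3 states both ages have (an interaction term). For Zfp219, 6 members were called (11.8% against 9.11% of all peaks), led by Ikzf4 peak 3 at 0.56 (SE 0.11, adjusted p = 0.000196), which was higher with Zfp219 in aged and lower in young hosts. Ikzf2 peak 8 gave -0.91 (SE 0.23, adjusted p = 0.00421). For Dusp5, 3 were called (5.88% against 4% of all peaks), and Ikzf2 peak 12 gave -0.80 (SE 0.13, adjusted p = 1.35e-05). Its young Dusp5 libraries, at 221 and 208 in Tprog, 171, 202 and 176 in Ttran and 200.2, 145 and 156 in Tterm, overlapped with young OTC in Tterm and Ttran or touched it in Tprog. For the difference between Tprog and Tterm in OTC cells, 1 member was called (1.96% against 2.32% of all peaks), Ikzf1 peak 3 at 0.62 (SE 0.17, adjusted p = 0.0331). That promoter held 397 and 401 in aged Tprog and 367 and 357 in aged Tterm, but 398 and 427 in young Tprog and 539, 619 and 571 in young Tterm. The ages overlapped in Tprog and were separate in Tterm. That call ended in 8 of 9 omissions of a library, at adjusted p of 0.0564 to 0.14. The Zfp219 count was 2 without aged OTC Ttran replicate 2, and 3 without aged OTC Tprog replicate 2, aged OTC Tterm replicate 1, aged Zfp219 replicate 1 of Tprog, Ttran or Tterm, young OTC replicate 2 of Ttran or Tterm, or young Zfp219 Tterm replicate 2. The Dusp5 count was 1 without aged Dusp5 Tterm replicate 2.

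Summed over the peaks of a gene, the highest group mean was 1.29 to 1.53 times the lowest, depending on the gene. The sum ran from 4759 to 6671 normalized reads for Ikzf1, 1754 to 2889 for Ikzf2, 2815 to 3834 for Ikzf3 and 1282 to 1714 for Ikzf4 over the 48 libraries. Ikzf2 was highest in aged OTC Ttad, at 2853 ± 51 (SD, n = 2), then aged OTC Tprog at 2715 ± 117 (SD, n = 2), and lowest in young OTC Ttran at 1861 ± 49 (SD, n = 3), a 1.53-fold span. Ikzf1 and Ikzf3 were highest in young OTC Tterm, at 6570.3 ± 97 and 3758 ± 65 (SD, n = 3), and lowest in aged Dusp5 Tprog (4906 ± 15) and aged Zfp219 Tprog (2820.0 ± 6.8, SD, n = 2). Ikzf4 ran from 1659 ± 91 (SD, n = 3) in young Dusp5 Ttran to 1285 ± 3.8 (SD, n = 2) in aged OTC Tprog. The 21 groups were then ordered by their mean sum. Libraries of neighbours overlapped in 15 of 20 pairs for Ikzf1, 18 for Ikzf2 and 17 for each of Ikzf3 and Ikzf4. Neighbours in such an order have the closest means, so these counts do not test whether groups differ.

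Over the 21 group means, the sums of Ikzf2 and Ikzf3 had a Pearson r of -0.80, Ikzf1 and Ikzf3 of 0.67, and Ikzf1 and Ikzf2 of -0.58. These are descriptions of groups that share libraries and scaling. Among 6392 genes with at least 3 peaks, those most like Ikzf2 were Ap3b1 (r = 0.91), Larp4, Hacd2, Ppp2r2a and Kit (0.90). Most like Ikzf1 were Myh9 (0.90), Sephs2, Rinl, Txn2 and Irf1. Most like Ikzf3 were Ccdc63 (0.90), Sh2d6, Atp2b4, Camk1d and Dok2, and most like Ikzf4 were Wscd2 (0.87), Mllt6, Ptpre, Akt2 and Trpm4.

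Genes of the proteins that work with the family were read from lists. Of 77 peaks at 19 of 20 partners in repression (subunits of NuRD and of the CtBP, Sin3 and SWI/SNF complexes, and the family member Ikzf5), 6 were higher and 17 lower in aged OTC Tprog than in Tterm (29.9% called against 20.1% of all peaks), with a median of -0.14 against 0.01 over all peaks. In young OTC the counts were 6 and 8, together 18.2%, which is below the 26.5% of all peaks. Mta3, a NuRD subunit, had 6 of its 12 peaks lower and none higher in aged and 5 lower in young Tprog, with its strongest peak at -0.46 (adjusted p = 7.24e-05) and -0.37 (adjusted p = 0.000474). Gatad2a, another NuRD subunit, had 4 of 12 lower in aged and 1 of 12 higher in young hosts. Of 14 peaks at the 5 genes of the cereblon ligase (Crbn, Ddb1, Cul4a, Cul4b and Rbx1), 1 was higher and 1 lower between these states in aged hosts and 3 were lower in young hosts (14.3% and 21.4%, below the 20.1% and 26.5% of all peaks). With age 1 was higher and 6 lower, together 50.0% against 36.5% of all peaks. Rbx1, the RING subunit, had 4 of its 6 peaks lower in aged hosts.

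Genes reported in earlier work to be regulated by Ikaros family proteins in T cells had 163 peaks at 16 of 18 genes. In aged OTC hosts 20 were higher and 35 lower in Tprog than in Tterm, together 33.7% against 20.1% of all peaks. In young OTC hosts 34 were higher and 38 lower, together 44.2% against 26.5% of all peaks. Much of this lay at 2 genes. Ifng held 20 of the 35 lower calls in aged and 17 of the 38 in young hosts. Bcl2 held 10 of the 20 higher calls in aged and 14 of the 34 in young hosts. Il2, the T cell growth factor gene, had 4 of 6 peaks higher in aged and 6 of 6 in young Tprog, with the strongest at 1.09 (adjusted p = 8.29e-11) and 1.3 (adjusted p = 1.31e-15). Ifng, which encodes interferon gamma, had 20 of 27 lower in aged and 17 of 27 in young Tprog and none higher, with the strongest at -0.91 (adjusted p = 9.75e-17) and -0.51 (adjusted p = 9.14e-09). Bcl2, a survival gene, had 10 of 23 higher in aged and 14 in young Tprog and none lower, and Satb1, a chromatin organiser, 4 of 9 at each age. No peak was assigned to Rbbp4, Ptcra or Foxp3 of these lists.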

How the data were processed

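ATAC-seq was done on 48 libraries of sorted OT-1 CD8 T cells. The submitters' processing notes name Bowtie2 2.2.9, Picard 2.8.0, SAMtools 1.3.1, MACS2 2.1.1, DESeq2 1.28.1 and the build mm10. The deposited values are a normalized signal per peak, and 100% of them were whole reads times 1 factor per library (tolerance 0.001), so reads could be recovered.

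Peaks were assigned to genes with RefSeq gene bodies (GRCm38.p6). Strand and exons of the genes, and whether the table counts positions from 0 or 1, are not used or not given in the sources used here. Values were tested with limma 3.58.1 in R 4.3.3 on log2(value + 1), with a trend, a mean for each of 21 groups and Benjamini-Hochberg adjustment over 53868 peaks. The script was tested on simulated data. Each replicate is a pool of cells of several mice, and p-values measure the spread between these pools. Correlations of the deviations of same-numbered libraries were -0.0184 to 0.0170. They cannot show whether libraries of the same number came from the same mice, which is not given.

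The text names, for each gene, the strongest peak, the peak with the largest range, the peaks at RefSeq starts and, for each comparison, the called peaks with the largest rise and fall, with other peaks given as further values. The members, the lists of partners, ligase and target genes and the marker lists were chosen with earlier results of these data known. A marker gene of these lists is not reported here by name. Alternatives were edgeR 4.0.16 and DESeq2 1.42.0 on recovered reads, another pseudocount, scaling, filter and weights, only the groups compared, a replicate block and the omission of each library.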

Additional observations from a re-analysis of the deposited data

Results flagged for a closer look

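The differences below are those whose size differed between aged and young hosts by the interaction term of limma, with p adjusted over all peaks by Benjamini-Hochberg and the young difference subtracted from the aged one. For Zfp219 against OTC these were Ikzf1 peak 3 (0.29, SE 0.10, adjusted p = 0.0476), Ikzf1 peak 12 (0.40, SE 0.13, adjusted p = 0.0379), Ikzf2 peak 8 (-0.91, SE 0.23, adjusted p = 0.00421), Ikzf3 peak 1 (0.27, SE 0.08, adjusted p = 0.016), Ikzf3 peak 13 (0.49, SE 0.17, adjusted p = 0.0454) and Ikzf4 peak 3 (0.56, SE 0.11, adjusted p = 0.000196). The calls of Ikzf1 peak 12 and Ikzf3 peak 13 ended in 13 and 18 of 28 omissions of a library.

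For Dusp5 against OTC these were Ikzf1 peak 10 (-0.39, SE 0.10, adjusted p = 0.0114), Ikzf2 peak 8 (-0.74, SE 0.23, adjusted p = 0.0445) and Ikzf2 peak 12 (-0.80, SE 0.13, adjusted p = 1.35e-05). The call of Ikzf1 peak 10 ended without aged Dusp5 Tterm replicate 2 (-0.33, adjusted p = 0.0594). Both perturbations were set against the same OTC libraries. Ikzf2 peak 8 held 147 and 129 normalized reads in aged OTC Tprog and 93.1 and 58.2 in young OTC Tprog. With Zfp219 it held 95.3 and 86.3 in aged and 126 and 90.3 in young Tprog, so the ages were separate with OTC and overlapped with Zfp219.

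For Tprog against Tterm in OTC cells this was Ikzf1 peak 3 (0.62, SE 0.17, adjusted p = 0.0331).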

How the results depend on the processing

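Alternatives were run for 15 counts of called members and 58 named results, and none of the named results changed its direction. They were not run for Ttran against Tprog, Ttad against Ttran or age within Zfp219 or Dusp5. Of the 15 counts, these moved by over 1.5 times. With only the groups compared in the fit, Ttran against Tterm gave 1 in aged hosts (2 as reported) and 6 in young hosts (3 as reported). Library quality weights gave 6 for the latter and DESeq2 on recovered reads gave 5. DESeq2 also gave 5 for the Dusp5 age interaction (3 as reported) and 3 for the age interaction of Tprog against Tterm (1 as reported). edgeR gave 1 for Ttad against Tprog (3 as reported), and quantile normalization 2 for Dusp5 in young hosts (4 as reported). The cause was not tested.

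Leaving out 1 library at a time, the counts ran from 6 to 9 for Tprog against Tterm in aged and 11 to 14 in young hosts (12 and 17 as reported). They ran from 0 to 1 for Ttran against Tterm in aged and 2 to 3 in young hosts, 3 to 5 for Ttad against Tterm and 1 to 2 for Ttad against Tprog. For age they ran from 24 to 29, for Zfp219 from 15 to 17 in aged and 3 to 5 in young hosts, and for Dusp5 from 9 to 14 and 2 to 4. The age interactions ran from 2 to 8 for Zfp219, 1 to 4 for Dusp5 and 0 to 1 for Tprog against Tterm, and the single-state tests from 21 to 27. Where a group kept 1 library, it was assumed to vary like the other groups. Of 58 named results, 53 kept their call with edgeR and 55 with DESeq2.

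With the replicate number as a block the counts were 12 for Tprog against Tterm in aged and 16 in young hosts, 2 and 3 for Ttran against Tterm, 5 for Ttad against Tterm and 3 for Ttad against Tprog, 26 for age (28 as reported), 18, 5 and 6 for Zfp219, 12, 4 and 3 for Dusp5, 1 for the state interaction and 27 for the single-state tests. The block ended 1 named call, that of Ikzf1 peak 8 with age (adjusted p = 0.0637 by limma). Which mice each number stands for is not given, so whether the block pairs libraries is not known. Libraries with few reads limit weak peaks such as Ikzf3 peak 6.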
